A study of Mus musculus with 8 samples.

Results

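The genes described here are the chaperones, folding enzymes and stress sensors of the endoplasmic reticulum (ER), together with the machinery that brings proteins into the ER and takes misfolded ones out. They were chosen by name, with earlier results of these data known, so counts of called genes among them are a description and no independent evidence. The 36 symbols stand for 35 genes, since Selenos and Vimp name the same gene. The 35 genes are among 54532 in the deposited tables, and 34 of them are among the 12704 genes that passed the filter of more than 1 CPM, the unit of counts scaled to the library total, in at least 2 libraries. The gene left out was Derl3, a Derlin of specialised secretory cells, which lay between 0 and 0.433 CPM in the 8 libraries.

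Proteins bound for the cell surface or for secretion enter the ER through the Sec61 channel and are folded there by the HSP70 chaperone HSPA5 (BiP), by the lectin chaperones calnexin and calreticulin and by disulfide isomerases. Chains that fail to fold are carried back to the cytosol and destroyed, a route known as ER-associated degradation. When unfolded chains build up, the sensors IRE1 (Ern1), ATF6 and PERK switch on the unfolded protein response, in which spliced XBP1 and cleaved ATF6 bind short elements in the promoters of chaperone genes. Carcinoma cells with a heavy load of secretory and membrane proteins are known to depend on this response.

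RNA sequencing was carried out on 4T1 cells, a triple-negative mammary carcinoma line from the BALB/c mouse. All cells were stable transfectants under puromycin that carried either a scramble shRNA or an shRNA against MCT-1 (shMCT-1), the product of Mcts1, and each received control IgG or an antibody that blocks the mouse IL-6 receptor (anti-IL-6R) for 48 h, the antibody at 100 ng/ml. Both treatments were given to both backgrounds, which makes 4 groups, named here as in scramble + IgG, and each has 2 libraries that the submitters call independent biological replicates. Each background is 1 stable line made with 1 shRNA construct, whether the lines are single clones is not given, and an effect of the silencing cannot be told apart from any other difference between the 2 lines.

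Library totals lay between 19839255 and 33063535 counts, and all 4 shMCT-1 libraries held fewer counts than the 4 scramble libraries. Mcts1 lay between 11.8 and 15 CPM in scramble and between 4.99 and 6.87 CPM in shMCT-1, and the fitted difference was -1.10 on the log2 scale (SE 0.12, adjusted p = 1.13e-05 from edgeR). Mitochondrial transcripts took 1.97 to 2.52% of the counts in scramble and 0.84 to 1.53% in shMCT-1. Among markers of other cells, 1 of 5 leukocyte genes (Cd68), 1 of 3 endothelial genes and 2 of 4 fibroblast genes exceeded 1 CPM in any library, whereas all 6 epithelial genes did, with a sum of 2380 to 2500 CPM in scramble and 3210 to 3510 CPM in shMCT-1. Summed over each list, the leukocyte genes came to 2.86 to 3.64 CPM in scramble and 5.68 to 7.90 CPM in shMCT-1, the endothelial genes to 0.0944 to 0.331 and 0.568 to 1.85 CPM, and the fibroblast genes to 15 to 17 and 13 to 16.5 CPM. Adgre1 and Cd3e were at 0 in all 8 libraries, and the part of these differences in the results was not tested.

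The question asked first was how the ER genes differ between shMCT-1 and scramble cells. Most were higher in shMCT-1, by about the same amount under IgG and under anti-IL-6R. Within IgG, 25 of the 34 tested genes were higher in shMCT-1 and 3 were lower, where 28.3% of all tested genes were called higher and 26.2% lower by edgeR's quasi-likelihood test at an adjusted p under 0.05. Within anti-IL-6R, 23 were higher and 3 lower, against 26.9% and 27.3% of all genes. In the comparison of shMCT-1 + anti-IL-6R with scramble + IgG, 24 were higher and 3 lower, against 28.2% and 28.1%. The median log2 fold change of the 34 genes was 0.46 within IgG and 0.48 within anti-IL-6R, beside 0.01 over all tested genes in both.

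The comparisons within IgG and within anti-IL-6R contrast different libraries but share the 2 lines. Both came from 1 fit of all 8 libraries with a shared estimate of the spread, so their calls are not independent. In both comparisons 23 genes were called higher and 3 lower, against 23.6% and 22.7% of all tested genes. A further 2 were called within IgG only (8.08% of all genes), 6 in neither (37.7%), and none in opposite directions. The 23 genes were 1.27 to 2.47 times as high in shMCT-1 across both treatments, with a median of 1.49 times. The 3 lower genes were Dnajb9, Ern1 and Sel1l. With both treatments in an additive fit of background and treatment, 25 genes were higher and 4 lower, the fourth being Dnajc10, against 35% and 34% of all genes. In bulk RNA, a larger share of cells with a high level of a transcript cannot be told apart from more of it in every cell.

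Summed over the 35 genes, the ER transcripts came to 7205 to 7558 CPM in the 4 scramble libraries and to 10210 to 10500 CPM in the 4 shMCT-1 libraries. The lowest shMCT-1 library therefore stood well above the highest scramble library, and the libraries of each background lay close together whichever antibody they had received. Hspa5 alone took 24.5% of that sum on average. Taken gene by gene, the 4 shMCT-1 libraries lay above the 4 scramble libraries for 26 of the 34 genes, which was the case for 33.0% of all tested genes, and below them for 4, which was the case for 31.4%. An exact two-sided permutation test of 4 against 4 libraries cannot give a p below 0.0286, the value of each gene without overlap, and 2 against 2 cannot go below 0.333, so the p-values per gene come from edgeR.

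**Figure D1:**
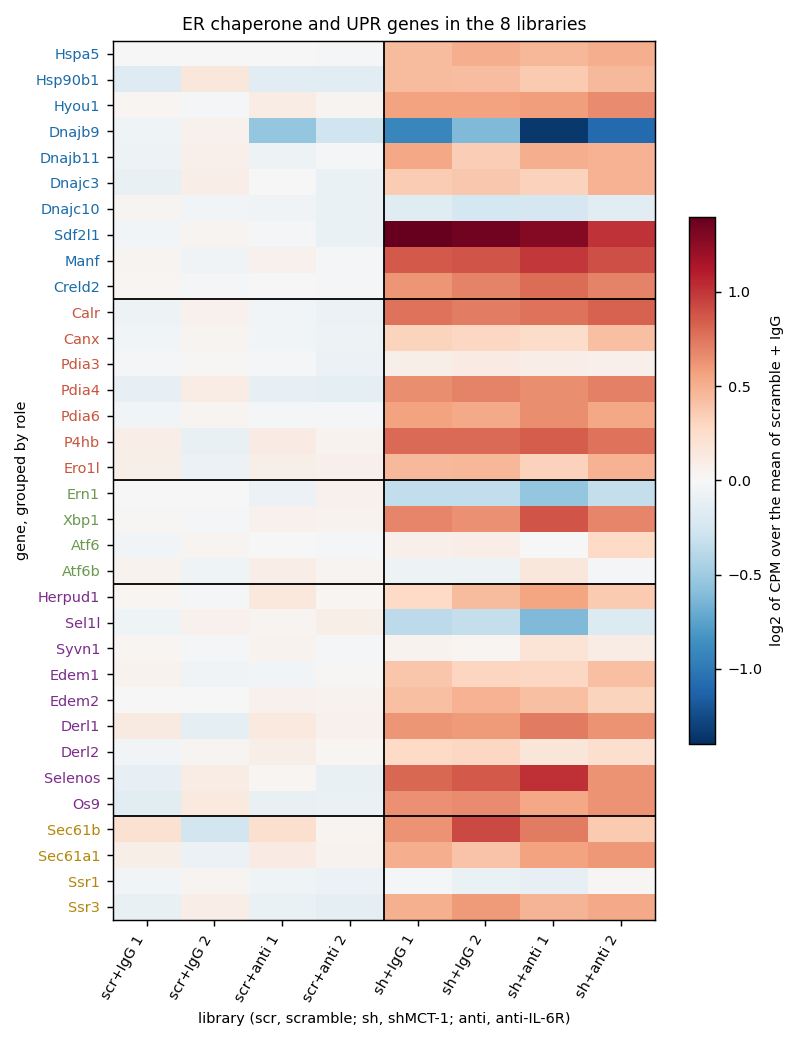
Each row is 1 of the 34 tested ER genes and each column 1 of the 8 libraries, grouped by background and treatment. Colour gives the log2 of the CPM over the mean of the 2 scramble + IgG libraries, and the right part of the map, the shMCT-1 libraries, is red for most genes and blue for Dnajb9, Dnajc10, Ern1 and Sel1l.

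The fold changes have to be read beside those of the rest of each chromosome. Relative to scramble, the median of all tested genes within IgG was -0.36 on chromosome 2, -0.36 on chromosome 12 and -0.42 on chromosome 13 on the log2 scale, while on the other autosomes and chromosome X it lay between -0.08 and 0.23. Of the tested ER genes, 8 lie on those 3 chromosomes. Hspa5, Dnajc10, Pdia3 and Edem2 are on chromosome 2, Dnajb9, Pdia6 and Sel1l on chromosome 12, and Ssr1 on chromosome 13. With the median of its chromosome subtracted, 29 of the 34 genes were above 0 in either comparison, and the median of the 34 genes was 0.42 within IgG. The part of these chromosome-wide differences in any single gene was not tested.

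The most abundant chaperones were higher in shMCT-1 by less than 2 times. Hspa5, the HSP70 of the ER lumen (chromosome 2 from 34771970 to 34777547, GRCm38, plus strand), was the highest of the 35 genes per length, with 512.5 CPM per kilobase of exon averaged over the libraries. It read 1809 and 1817 CPM in scramble + IgG, 1803 and 1773 CPM in scramble + anti-IL-6R, 2468 and 2585 CPM in shMCT-1 + IgG, and 2511 and 2574 CPM in shMCT-1 + anti-IL-6R. The scramble libraries differed among themselves by a few percent, and every shMCT-1 library was higher than every scramble library. The log2 fold change was 0.48 (SE 0.08, adjusted p = 0.000831 from edgeR) within IgG and 0.51 (SE 0.08, adjusted p = 0.000603) within anti-IL-6R, on a chromosome whose genes were lower as a whole.

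Hsp90b1, which encodes the luminal HSP90 known as GRP94, read 647.4 and 820.5 CPM in scramble + IgG, 663.6 and 657.9 CPM in scramble + anti-IL-6R, 998.8 and 993.6 CPM in shMCT-1 + IgG and 943.3 and 1003 CPM in shMCT-1 + anti-IL-6R. The groups did not overlap, but replicate 2 of scramble + IgG stood apart from the other 3 scramble libraries. The log2 fold changes were 0.44 (SE 0.11, adjusted p = 0.00742) and 0.56 (SE 0.11, adjusted p = 0.0022) within IgG and anti-IL-6R, and without scramble + IgG replicate 1 the first was 0.28. Hsp90b1 overlaps 1810014B01Rik on the opposite strand. Hyou1, a large HSP70 that exchanges the nucleotide of HSPA5, ranged from 160.4 to 175.6 CPM in scramble and from 240.5 to 257.8 CPM in shMCT-1. Its log2 fold changes were 0.56 (SE 0.08) and 0.55 (SE 0.08), with adjusted p of 0.000316 and 0.000347 from edgeR.

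Several of these genes carry the same short element upstream of their start. The ER stress response element is CCAAT, 9 bases and CCACG, the site that cleaved ATF6 is known to bind together with NF-Y. It was searched on both strands in RefSeq promoter windows of 250 bases before to 50 bases after the start (GRCm38.p6), which were at hand for 30 of the 35 genes. Counted per gene over all its windows, the element stood in 9 of the 30 genes (30.0%) and in 37 of all 27025 genes with a window (0.137%). Promoters of ER chaperone genes are known to hold such elements, so the higher share among genes chosen by name is no independent finding. The 10 elements are shown with the CCAAT and CCACG blocks in capitals and the spacer in lower case, read in the orientation of the element.
Hspa5 (chr2:34772025-34772043, 65 bases before the start): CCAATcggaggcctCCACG
Hsp90b1 (chr10:86705638-86705656, 212 bases before the start): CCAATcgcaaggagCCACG
Hsp90b1 (chr10:86705533-86705551, 107 bases before the start): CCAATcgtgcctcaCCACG
Dnajc3 (chr14:118937827-118937845, 105 bases before the start): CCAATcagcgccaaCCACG
Creld2 (chr15:88819520-88819538, 126 bases before the start): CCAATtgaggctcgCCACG
Calr (chr8:84847075-84847093, 162 bases before the start): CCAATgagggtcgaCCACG
Canx (chr11:50325800-50325818, 145 bases before the start): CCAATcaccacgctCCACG
Pdia6 (chr12:17266491-17266509, 98 bases before the start): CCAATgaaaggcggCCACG
Syvn1 (chr19:6046532-6046550, 44 bases before the start): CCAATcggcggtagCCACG
Derl3 (chr10:75893242-75893260, 156 bases before the start): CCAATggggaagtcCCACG

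Distances are from the RefSeq start, and for Hspa5 the GENCODE start given above lies 120 bases upstream of it, so that the element falls within the GENCODE gene. The other 9 elements lie outside the GENCODE genes. The elements of Hspa5, Dnajc3, Canx, Pdia6 and Syvn1 and the more distal of the 2 of Hsp90b1 are on the strand of their gene, and the others are on the opposite strand. Within each spacer, 66.7 or 77.8% of the 9 bases were G or C. Of the genes with a window, 7 of the 21 called higher in shMCT-1 across both treatments held the element, as did 0 of the 4 called lower and 2 of the 5 not called or not tested, which were Syvn1 and Derl3. The median log2 fold change was 0.50 for the 8 tested genes with the element, with a range of 0.08 to 0.79. For the 21 genes without the element the median was 0.38, with a wider range of -0.78 to 1.31 that covers the first. Outside the 35 genes, 28 genes held the element, of which 7 were tested, and 3 of these were higher and 4 lower in shMCT-1. These other genes were looked at after the counts of the ER genes were known. A match describes the letters in the window and does not show that a factor is bound.

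Of the other sequences searched, CCACG alone stood in 25 of the 30 genes (83.3%) and in 35.5% of all genes with a window. CCAAT alone stood in 23 (76.7%) and 41.1%. Both counts include the blocks within the full elements. The second form of the element, ATTGG, 1 base and CCACG, stood in 2 genes, Dnajb11 and Herpud1, and in 12 of all genes with a window. TGACGTGG, the core of the unfolded protein response element, stood in 0 of the 30 genes and in 0.714% of all genes with a window. The shorter TGACGT, which is part of it, stood in 3 (10.0%) and 8.37%.

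The DnaJ co-chaperones of HSPA5 were split, with Dnajb11 and Dnajc3 higher in both comparisons, Dnajb9 lower in both and Dnajc10 called lower across both treatments. Dnajb11 (ERdj3), which brings unfolded chains to HSPA5, ranged from 64.01 to 70.38 CPM in scramble and from 85.37 to 98.04 CPM in shMCT-1. Its log2 fold changes were 0.45 (SE 0.10, adjusted p = 0.00318 from edgeR) within IgG and 0.54 (SE 0.09, adjusted p = 0.00114) within anti-IL-6R. Dnajc3 (P58IPK) ranged from 50.06 to 57.63 CPM and from 67.45 to 75.73 CPM, with log2 fold changes of 0.36 and 0.46, and its call within IgG was lost without scramble + IgG replicate 1 or shMCT-1 + IgG replicate 2 (adjusted p = 0.0629 and 0.0636).

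Dnajc10 (ERdj5), a reductase that opens wrong disulfides before degradation, lay between 107.4 and 117.6 CPM in scramble and between 96.63 and 103.2 CPM in shMCT-1. The groups did not overlap. The difference was not called within IgG (log2 fold change -0.21, 95% interval -0.39 to -0.03, adjusted p = 0.0536 from edgeR) or within anti-IL-6R (-0.13, interval -0.31 to 0.06). It was called across both treatments, at -0.17 (SE 0.05, adjusted p = 0.0177), a call lost without any of scramble + IgG replicate 1, scramble + anti-IL-6R replicate 1 and shMCT-1 + IgG replicate 2, where the value was -0.14, -0.17 and -0.14. It was also lost without the filter on low counts (-0.15, adjusted p = 0.101). The difference within IgG was in turn called with a filter of more than 1 CPM in 7 libraries, with RLE size factors and without either shMCT-1 + anti-IL-6R library (adjusted p = 0.0408, 0.0411, 0.0275 and 0.0266). With the median of chromosome 2 subtracted, the value across both treatments was 0.20.

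Dnajb9 (ERdj4, ENSMUSG00000014905, chromosome 12 from 44205559 to 44210326, GRCm38, minus strand) binds HSPA5 and is known to hold IRE1 in its inactive form. It read 14.96 and 16.31 CPM in scramble + IgG, 10.73 and 12.88 CPM in scramble + anti-IL-6R, 8.313 and 10.18 CPM in shMCT-1 + IgG and 6.146 and 7.342 CPM in shMCT-1 + anti-IL-6R. It was thus the reverse of most of the group, with every shMCT-1 library below every scramble library and the lowest values under both conditions together. Relative to scramble, the log2 fold change was -0.76 (SE 0.15, adjusted p = 0.00238 from edgeR) within IgG and -0.81 (SE 0.16, adjusted p = 0.00211) within anti-IL-6R. The median of all tested genes on chromosome 12 was -0.36 in both comparisons, and with it subtracted the values were -0.40 and -0.45.

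The 3 small luminal partners of the HSP70 system were higher in shMCT-1, and Sdf2l1 and Manf had the largest rises of the 34 tested genes in both comparisons. Sdf2l1, a subunit of the complex of HSPA5 and DNAJB11, read 4.988 and 5.258 CPM in scramble + IgG, 5.033 and 4.817 CPM in scramble + anti-IL-6R, 14.07 and 13.09 CPM in shMCT-1 + IgG and 12.45 and 10.34 CPM in shMCT-1 + anti-IL-6R. It was about equal in the 4 scramble libraries and 2.65 times as high within IgG and 2.31 times as high within anti-IL-6R, with log2 fold changes of 1.41 (SE 0.14, adjusted p = 5.62e-05 from edgeR) and 1.21 (SE 0.14, adjusted p = 0.000123).

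Manf, a secreted and ER-resident factor that binds HSPA5, read 105.4 and 99.15 CPM in scramble + IgG, 106.5 and 100.3 CPM in scramble + anti-IL-6R, 185.1 and 187.8 CPM in shMCT-1 + IgG and 203.1 and 190.9 CPM in shMCT-1 + anti-IL-6R. The 2 backgrounds were far apart relative to their spread, with log2 fold changes of 0.87 (SE 0.08, adjusted p = 4.02e-05) and 0.93 (SE 0.08, adjusted p = 2.54e-05 from edgeR). Manf is annotated over the genes Dcaf1 and Rbm15b, and how the counting treated strand and overlaps is not given in the sources used here. Creld2, an ER-resident protein with a thioredoxin-like motif, ranged from 39.74 to 41.46 CPM in scramble and from 62.51 to 69.88 CPM in shMCT-1, with log2 fold changes of 0.66 and 0.75.

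**Figure D2:**
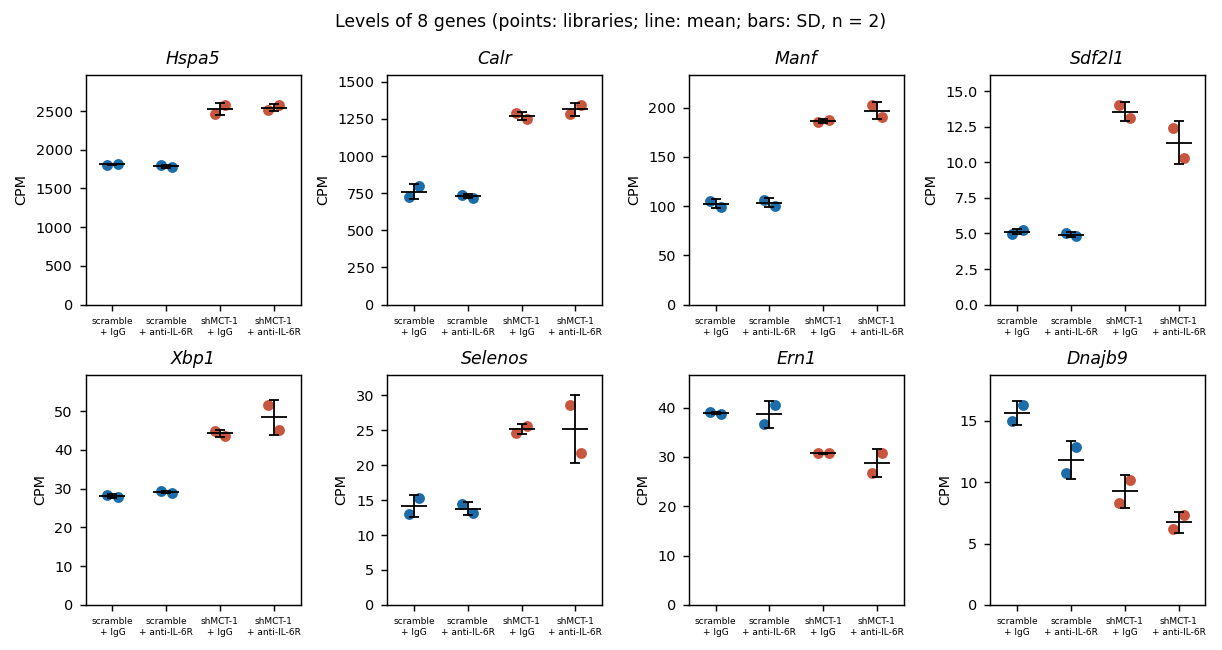
TMM-adjusted CPM of 8 genes in the 4 groups, with points for single libraries, a line at the mean and bars for the SD (n = 2), on axes that start at 0. Hspa5, Calr, Manf, Sdf2l1, Xbp1 and Selenos are higher in both shMCT-1 groups (red) than in both scramble groups (blue), while Ern1 and Dnajb9 are lower.

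Among the lectin chaperones and disulfide enzymes, 6 of 7 genes were higher in both comparisons and none was lower, against 23.6% of all tested genes higher in both and 22.7% lower in both. Calr, which encodes calreticulin, was the second most abundant gene of the group per length, at 354.0 CPM per kilobase. It read 726.1 and 796.5 CPM in scramble + IgG, 740.1 and 719.1 CPM in scramble + anti-IL-6R, 1291 and 1251 CPM in shMCT-1 + IgG and 1285 and 1347 CPM in shMCT-1 + anti-IL-6R. The backgrounds were separated by a gap several times as wide as the spread within them. The log2 fold changes were 0.74 (SE 0.09, adjusted p = 0.000111 from edgeR) and 0.85 (SE 0.09, adjusted p = 4.96e-05).

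Canx, the membrane-bound counterpart calnexin, ranged from 546.9 to 590.9 CPM in scramble and from 687.1 to 770.6 CPM in shMCT-1, and its log2 fold changes of 0.30 and 0.40 were smaller than those of Calr. The call within IgG was lost without either of the shMCT-1 + IgG libraries (adjusted p = 0.0798 without replicate 1 and 0.0611 without replicate 2). P4hb, the founding protein disulfide isomerase, ranged from 410.1 to 475.6 CPM and from 746.0 to 794.5 CPM, with log2 fold changes of 0.79 (SE 0.09, adjusted p = 0.000118 from edgeR) and 0.73 (SE 0.09, adjusted p = 0.00019). Its relative Pdia4 ranged from 84.60 to 99.77 CPM and from 145.4 to 151.1 CPM, with log2 fold changes of 0.67 and 0.80. Pdia6, another isomerase, ranged from 261.8 to 274.2 CPM and from 388.5 to 421.8 CPM, with log2 fold changes of 0.55 and 0.62. The median log2 fold change of all tested genes on chromosome 12, where Pdia6 lies, was negative in both comparisons.

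Pdia3 (ERp57), the isomerase that works with calnexin and calreticulin, ranged from 423.1 to 453.7 CPM in scramble and from 470.6 to 483.2 CPM in shMCT-1. The groups did not overlap, yet the log2 fold changes of 0.09 (95% interval -0.08 to 0.27) within IgG and 0.13 (-0.04 to 0.30) within anti-IL-6R were not called. Ero1l, the oxidase that recharges disulfide isomerases, ranged from 82.18 to 92.10 CPM in scramble and from 109.0 to 122.5 CPM in shMCT-1, with log2 fold changes of 0.46 and 0.33. The second was not called without either scramble + anti-IL-6R library (adjusted p = 0.0734 without replicate 1 and 0.0843 without replicate 2).

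The sensors and transcription factors moved apart from each other. Xbp1, whose spliced product drives ER chaperone and degradation genes (chromosome 11 from 5520659 to 5525893, GRCm38, plus strand), read 28.37 and 27.74 CPM in scramble + IgG, 29.28 and 28.93 CPM in scramble + anti-IL-6R, 44.96 and 43.55 CPM in shMCT-1 + IgG and 51.65 and 45.21 CPM in shMCT-1 + anti-IL-6R. Its log2 fold changes were 0.66 (SE 0.09, adjusted p = 0.000319 from edgeR) and 0.73 (SE 0.09, adjusted p = 0.000167). The counts are per gene and do not separate the spliced from the unspliced form.

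Ern1 encodes IRE1, the kinase and endonuclease that splices Xbp1, and lies on the same chromosome from 106394650 to 106487852 on the minus strand. It read 39.02 and 38.75 CPM in scramble + IgG, 36.71 and 40.57 CPM in scramble + anti-IL-6R, 30.70 and 30.72 CPM in shMCT-1 + IgG and 26.80 and 30.75 CPM in shMCT-1 + anti-IL-6R. The 4 shMCT-1 libraries were lower than the 4 scramble libraries, the reverse of Xbp1, and the median of all tested genes on chromosome 11 was 0.15 in both comparisons. The log2 fold changes were -0.34 (SE 0.10, adjusted p = 0.0138 from edgeR) and -0.42 (SE 0.10, adjusted p = 0.00471). The call within IgG was lost without either shMCT-1 + IgG library (adjusted p = 0.0671 and 0.067), and that within anti-IL-6R without scramble + anti-IL-6R replicate 2 (adjusted p = 0.0656).

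Atf6 and Atf6b, the membrane-bound factors that are cleaved in the Golgi upon stress, overlapped between the backgrounds. Atf6 ranged from 61.49 to 64.75 CPM in scramble and from 63.47 to 76.75 CPM in shMCT-1, with 95% intervals of the log2 fold change of -0.14 to 0.31 within IgG and -0.06 to 0.39 within anti-IL-6R. It was called within anti-IL-6R once shMCT-1 + anti-IL-6R replicate 1 was left out, with a value of 0.31. Atf6b ranged from 119.6 to 133.1 CPM and from 118.0 to 139.1 CPM, with intervals of -0.28 to 0.13 and -0.20 to 0.21.

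Of the 9 tested genes of ER-associated degradation, 7 were higher and 1 lower within IgG, against 28.3% and 26.2% of all tested genes, and 6 were higher and 1 lower within anti-IL-6R, against 26.9% and 27.3%. Selenos, a selenoprotein that links Derlins to the ATPase VCP, read 13.02 and 15.24 CPM in scramble + IgG, 14.44 and 13.12 CPM in scramble + anti-IL-6R, 24.66 and 25.65 CPM in shMCT-1 + IgG and 28.66 and 21.80 CPM in shMCT-1 + anti-IL-6R. Its log2 fold changes of 0.83 (SE 0.14, adjusted p = 0.000963 from edgeR) and 0.87 (SE 0.14, adjusted p = 0.000735) were the largest of the degradation genes. The shMCT-1 libraries under anti-IL-6R were spread more widely than the others, but none overlapped the scramble libraries.

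Os9, a lectin that hands glycoproteins over for degradation, ranged from 37.78 to 46.04 CPM in scramble and from 61.10 to 66.21 CPM in shMCT-1, with log2 fold changes of 0.65 and 0.69. Derl1, a membrane protein of the exit channel, ranged from 154.0 to 186.6 CPM and from 256.5 to 281.3 CPM, with log2 fold changes of 0.61 and 0.58. Its relative Derl2 ranged from 20.63 to 22.33 CPM and from 23.76 to 25.83 CPM without overlap. It was called within IgG (0.29, adjusted p = 0.0225 from edgeR) but not within anti-IL-6R (0.14, 95% interval -0.06 to 0.35). The first call was lost in 5 of the 8 fits that left out 1 library (adjusted p up to 0.0922), with DESeq2 (0.0968), without the filter (0.0734) and with edgeR's exact test (0.0504). Derl2 overlaps Mis12 on the opposite strand.

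Herpud1, a stress-induced scaffold of the degradation complex, ranged from 58.75 to 66.31 CPM in scramble and from 73.10 to 88.26 CPM in shMCT-1, with log2 fold changes of 0.36 and 0.38. Edem1 and Edem2, which trim the mannoses of glycoproteins that fail to fold, ranged from 52.95 to 56.92 CPM and from 30.84 to 32.34 CPM in scramble, and from 67.09 to 73.65 CPM and from 38.24 to 43.29 CPM in shMCT-1. The log2 fold changes were 0.34 and 0.37 for Edem1 and 0.46 and 0.31 for Edem2. These 3 genes were without overlap, but with 1 library left out some of their calls were lost, at log2 fold changes of 0.28 to 0.34. The call of Edem2 within IgG was kept under every alternative. That of Herpud1 was lost without scramble + IgG replicate 2 or shMCT-1 + IgG replicate 2 within IgG and without scramble + anti-IL-6R replicate 2 within anti-IL-6R (adjusted p = 0.0522, 0.104 and 0.102). That of Edem1 was lost without shMCT-1 + IgG replicate 1 within IgG and scramble + anti-IL-6R replicate 1 within anti-IL-6R (0.0737 and 0.0681), and that of Edem2 without either scramble + anti-IL-6R library within anti-IL-6R (0.0768 and 0.0969).

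Syvn1 (HRD1), the ubiquitin ligase of the degradation complex, and Sel1l, its membrane partner, did not follow the rest. Syvn1 ranged from 54.69 to 57.47 CPM in scramble and from 56.55 to 63.58 CPM in shMCT-1, with 95% intervals of the log2 fold change of -0.15 to 0.22 and -0.05 to 0.32. It overlaps Mrpl49 on the opposite strand. Sel1l read 96.93 and 105.9 CPM in scramble + IgG, 104.2 and 107.1 CPM in scramble + anti-IL-6R, 78.58 and 80.30 CPM in shMCT-1 + IgG and 65.85 and 89.12 CPM in shMCT-1 + anti-IL-6R. All 4 shMCT-1 libraries were lower, although those under anti-IL-6R lay far from each other.

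The log2 fold changes of Sel1l were -0.35 (SE 0.13, adjusted p = 0.039 from edgeR) within IgG and -0.45 (SE 0.13, adjusted p = 0.0141) within anti-IL-6R. The first was not called in 5 of the 8 fits that left out 1 library, with adjusted p of 0.0614 to 0.159, the libraries being both of shMCT-1 + IgG, both of scramble + anti-IL-6R and scramble + IgG replicate 2. The second was not called without scramble + anti-IL-6R replicate 1 or 2 or without shMCT-1 + anti-IL-6R replicate 1 (adjusted p = 0.0516, 0.0753 and 0.068), and without the last the value was -0.23. Without shMCT-1 + anti-IL-6R replicate 2 it was -0.67. Sel1l lies on chromosome 12, from 91806043 to 91849157 on the minus strand, and with the median of that chromosome subtracted its values were 0.00 within IgG and -0.09 within anti-IL-6R.

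**Figure D3:**
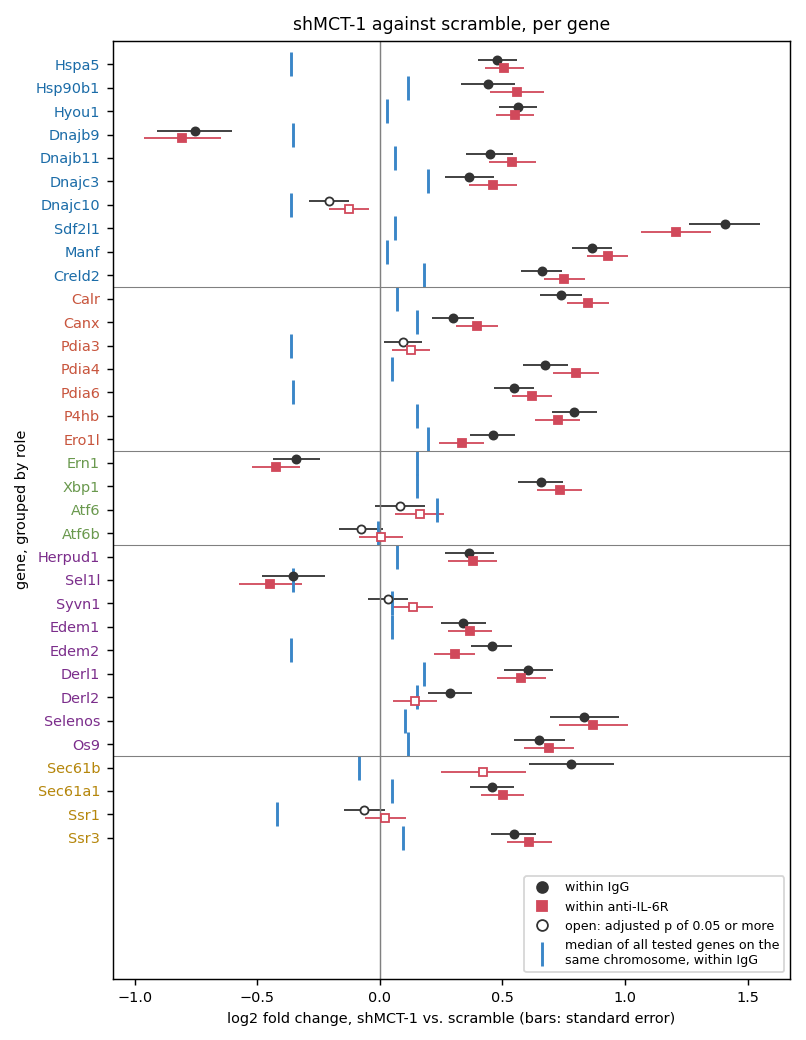
Difference between shMCT-1 and scramble, as a log2 fold change, for each of the 34 tested genes, within IgG (black circles) and within anti-IL-6R (red squares), with bars for the standard error and open symbols where the adjusted p was 0.05 or more. Blue ticks give the median of all tested genes on the same chromosome, and Sel1l lies on its tick while Hspa5, Pdia6 and Edem2 lie far to the right of theirs.

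Of the 4 translocon genes, 3 were higher within IgG and 2 within anti-IL-6R, against 28.3% and 26.9% of all tested genes, and none was lower. Sec61a1, the channel itself, ranged from 190.4 to 217.7 CPM in scramble and from 266.2 to 306.6 CPM in shMCT-1, with log2 fold changes of 0.46 and 0.50, and overlaps Gm44170 on the opposite strand. Ssr3, a subunit of the translocon-associated protein complex, ranged from 327.7 to 379.9 CPM and from 496.4 to 538.9 CPM, with log2 fold changes of 0.55 and 0.61. Ssr1, another subunit of that complex, overlapped between the backgrounds, from 223.2 to 243.5 CPM and from 219.1 to 239.0 CPM, with 95% intervals of -0.25 to 0.12 and -0.16 to 0.21, on a chromosome whose median was -0.42 within IgG.

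Sec61b, the small subunit of the channel, read 67.08 and 48.56 CPM in scramble + IgG, 67.47 and 59.54 CPM in scramble + anti-IL-6R, 89.17 and 109.8 CPM in shMCT-1 + IgG and 95.96 and 74.35 CPM in shMCT-1 + anti-IL-6R. Its replicates were spread more widely than those of the other translocon genes. It was called within IgG (log2 fold change 0.78, SE 0.17, adjusted p = 0.00407 from edgeR) and not within anti-IL-6R (0.42, SE 0.17, 95% interval 0.04 to 0.81, adjusted p = 0.0625). With DESeq2 and with edgeR's exact test the second was called (adjusted p = 0.0232 and 0.0136), and it was 0.24 without shMCT-1 + anti-IL-6R replicate 1 and 0.61 without replicate 2 of that group.

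By role, the sum of the 10 genes of the HSP70 and HSP90 system was 2981 to 3197 CPM in scramble and 4246 to 4382 CPM in shMCT-1, and that of the 7 lectin and disulfide genes was 2584 to 2707 and 3860 to 3998 CPM. The sums of the 10 degradation genes were 540.0 to 576.4 and 697.7 to 721.0 CPM, and those of the 4 translocon genes were 819.3 to 862.4 and 1109 to 1137 CPM. These 4 sums did not overlap between the backgrounds. The sum of the 4 sensors and factors did, at 250.8 to 262.3 CPM in scramble and 259.9 to 281.1 CPM in shMCT-1. Calls that held under the alternative settings are given for the ER genes only, without the share of all tested genes. In both comparisons 17 higher genes and 1 lower gene, Dnajb9, stayed called under every alternative of filter, normalization, test, block and left-out library.

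The next question was whether blocking the IL-6 receptor changed these genes in either background. No ER gene was called at an adjusted p under 0.05 by edgeR's quasi-likelihood test, in scramble, in shMCT-1 or across both, nor was any other gene in those comparisons (0% of all tested genes in each). DESeq2 called 0 of the 34 genes as well. At an unadjusted p under 0.05, 1 of the 34 genes passed in scramble, where 1.31% of all tested genes did, 1 in shMCT-1 (3.98%) and 1 across both backgrounds (2.79%). The gene was Dnajb9 each time. The study, in contrast, reports genes that differ upon anti-IL-6R in each background, Dnajb9 among them. It names an exact test in edgeR. Its methods give an adjusted p-value under 0.05 and its figure legend a p-value under 0.05. An exact test was also run here in each background, and it left Dnajb9 uncalled at an adjusted p under 0.05.

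Dnajb9 differed upon anti-IL-6R by -0.40 on the log2 scale (SE 0.15, unadjusted p = 0.0203 and adjusted p = 1 from edgeR) in scramble and -0.45 (SE 0.16, unadjusted p = 0.0204 and adjusted p = 1) in shMCT-1. Without shMCT-1 + IgG replicate 2 the second value was -0.30. Across both backgrounds it was -0.43 (SE 0.10, unadjusted p = 0.00179, adjusted p = 0.995 from edgeR). The 2 anti-IL-6R libraries lay below the 2 IgG libraries in each background. The share of all tested genes with this pattern is not given here. The medians of chromosome 12 in the same comparisons were -0.002 in scramble and -0.02 in shMCT-1. Dnajb9 was singled out by the study on these same libraries, so its response here is a description and no independent evidence. The study also reports lower Dnajb9 with anti-IL-6R and with shMCT-1 by quantitative RT-PCR, which was not examined here. In shMCT-1 + anti-IL-6R against scramble + IgG the log2 fold change was -1.21 (SE 0.16, adjusted p = 0.000216 from edgeR).

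The other 33 genes ranged from -0.15 to 0.13 in scramble and from -0.26 to 0.15 in shMCT-1, with median standard errors of 0.09 in both. Their smallest unadjusted p was 0.20, for Hsp90b1, in scramble, and 0.0916, for Sdf2l1, in shMCT-1. The median of the 34 genes was -0.01 in scramble and 0.01 in shMCT-1. Differences of the size of the standard error were not detectable with 2 libraries per group.

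No interaction of background and treatment was called for any ER gene by edgeR (0% of all tested genes), and DESeq2 called 0 of the 34. At an unadjusted p under 0.05, 0 of the 34 passed, where 2.48% of all tested genes did. For Dnajb9 the difference of the responses was -0.05 (SE 0.22, unadjusted p = 0.823 from edgeR), and over the other 33 genes it ranged from -0.36 for Sec61b to 0.13.

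**Figure D4:**
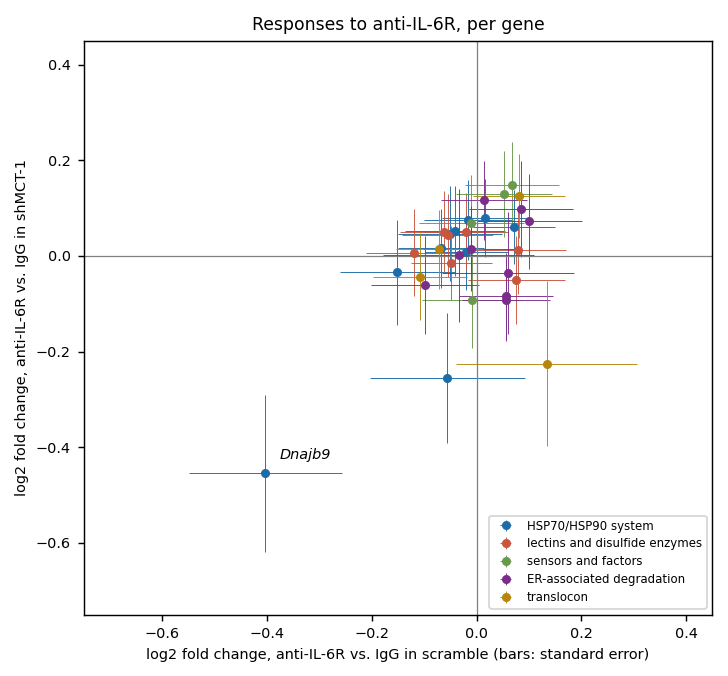
log2 fold change upon anti-IL-6R in scramble (horizontal) and in shMCT-1 (vertical) for the 34 tested genes, coloured by role, with bars for the standard error. Dnajb9, at -0.40 and -0.45, lies farther from 0 than each of the other 33 genes in both backgrounds.

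The remaining genes of the pathway were examined as 5 lists, which were also chosen with earlier results of these data known. Their counts across both treatments are set against the 35% higher and 34% lower of all tested genes. Of 25 further genes of translocation, signal peptidase and oligosaccharyltransferase, 21 were higher in shMCT-1 and 2 lower, with a median log2 fold change of 0.56. The largest rises were those of Sec11c, a catalytic subunit of signal peptidase, from 28.73 ± 1.73 to 68.87 ± 7.60 CPM (SD, n = 4 each; 1.26, SE 0.08), and of Dad1, a subunit of the oligosaccharyltransferase, from 54.89 ± 6.89 to 112.8 ± 7.60 CPM (1.04, SE 0.09). The largest falls were those of Sec61a2 (-0.46, SE 0.10) and Srp54a (-0.35, SE 0.12), of which the latter has near-identical copies that can share its reads. With the medians of chromosomes 2 and 12 subtracted they were -0.09 and 0.00, and the call of Srp54a was lost without either shMCT-1 + IgG library or shMCT-1 + anti-IL-6R replicate 1 (-0.35, -0.29 and -0.31). Without scramble + IgG replicate 2 the value of Srp54a was -0.23.

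Of 21 further folding and disulfide genes tested, 15 were higher and 3 lower, with a median of 0.43. Fkbp14 and Fkbp11, peptidyl-prolyl isomerases of the ER, rose most, Fkbp14 from 0.326 ± 0.0561 to 1.67 ± 0.246 CPM (SD, n = 4 each; 2.33, SE 0.26) and Fkbp11 from 16.78 ± 1.32 to 48.17 ± 4.33 CPM (1.52, SE 0.08). Fkbp14 was at most 0.378 CPM in scramble, so it passed the filter of more than 1 CPM only through shMCT-1. The direction of Fkbp14, counted among the 15 higher genes, was set by that. Ero1lb, the relative of Ero1l, and Dnajc1, a membrane-bound DnaJ protein, fell most, by 0.79 (SE 0.09) and 0.60 (SE 0.08) on the log2 scale. They lie on chromosomes 13 and 2, and with the chromosome median subtracted the values were -0.38 and -0.23.

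Of 17 further degradation genes, 6 were higher and 6 lower, with a median of 0.01, so that their shares were near those of all genes. Ufd1, a cofactor of VCP, and Tmub1, a membrane-bound ubiquitin-like protein, rose most (0.49, SE 0.07, and 0.47, SE 0.10). Edem3, the third of the EDEM genes, and Ube2j1, a ubiquitin-conjugating enzyme of the ER, fell most (-0.53, SE 0.12, and -0.40, SE 0.06). Edem3 thus went the other way from Edem1 and Edem2.

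Of 16 further regulators of the response, 9 were higher and 5 lower, with a median of 0.18. Creb3l2, an ER-anchored transcription factor related to ATF6, rose from 4.96 ± 0.211 to 18.4 ± 2.75 CPM (SD, n = 4 each; 1.89, SE 0.11) and Atf3, a stress-induced factor, from 11.9 ± 0.472 to 24.0 ± 2.90 CPM (1.01, SE 0.09). Chac1, which degrades glutathione, fell from 47.39 ± 1.88 to 32.57 ± 2.64 CPM (-0.54, SE 0.07). Traf2, an adaptor that binds IRE1, fell from 44.39 ± 2.36 to 35.03 ± 1.97 CPM (-0.34, SE 0.06). Both lie on chromosome 2, and with its median subtracted the values were -0.17 and 0.03.

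Of 13 heat shock genes of the cytosol, 5 were higher and 4 lower, with a median of 0.11, also near the shares of all genes. Hspa8, the constitutive HSP70 of the cytosol, rose from 3247 ± 126 to 4333 ± 74.0 CPM (SD, n = 4 each; 0.42, SE 0.06), and the small heat shock gene Hspb8 by 0.40 (SE 0.07). Hspa1b, a stress-induced HSP70, fell by 0.80 (SE 0.09) and its co-chaperone Dnaja1 by 0.44 (SE 0.07). Hspa1b is nearly identical to Hspa1a, so reads may have been divided between them. All named changes of the 5 lists had an adjusted p of at most 0.0182 from edgeR.

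**Figure D5:**
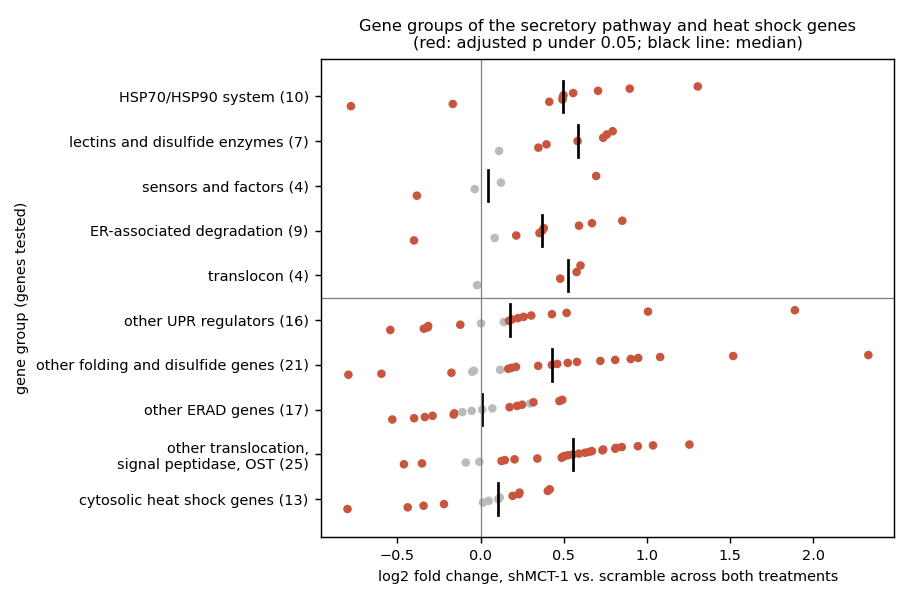
Difference between shMCT-1 and scramble across both treatments, as a log2 fold change, for each tested gene of the 5 roles (upper part) and of the 5 further lists (lower part), with red points for an adjusted p under 0.05 and a black line at the median. The medians of the lectin and disulfide genes, the translocon and the further translocation genes lie above 0.5, whereas those of the sensors, the further degradation genes and the cytosolic heat shock genes lie near 0.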

How the data were processed

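RNA of 8 libraries was analysed, grouped by the sample labels. The authors used cutadapt 1.18 for trimming and STAR 2.7.0d for alignment to mm10, and deposited RSEM expected counts per gene, which are not scaled for library size or length. The kit carried unique molecular identifiers, and their use in counting is not given in the sources used here. Of the values above 0, 29.6% were not whole, and all were rounded here. Gene positions come from GENCODE M21 on GRCm38, and promoters from RefSeq. Genes above 1 CPM in 2 or more libraries were scaled by TMM and fitted with edgeR 4.0.16 (R 4.3.3) by its quasi-likelihood functions, with 4 group means or with background and treatment as additive terms. Benjamini-Hochberg adjustment ran over all 12704 genes, with 0.05 as the threshold for a call. The methods of the study name an exact test, which is among the alternatives. CPM values are TMM-adjusted, and before that adjustment 1 CPM stood for 19.8 to 33.1 counts. Standard errors follow from the fold change and the F statistic, and 95% intervals from its degrees of freedom. Nothing beyond the submitters' wording shows that replicates were separate cultures, so the p-values measure the spread between these libraries. The replicates differed by more than sampling noise in every group.

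The ER genes and the other lists were chosen with earlier results of these data known. All 35 genes are named, and from each further list the 2 called genes with the largest rise and the 2 with the largest fall. Alternatives were DESeq2 1.42.0, RLE size factors, other filters, an unadjusted p, the replicate number as a block, fits of 4 libraries, edgeR's exact test, fits without mitochondrial genes, subtraction of chromosome medians and leaving out each library in turn. The fits were tested on simulated counts. Protein sequences were not used here.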

Additional observations from a re-analysis of the deposited data

How the results depend on the processing

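The number of ER genes called kept within 1.5 times its main value in every comparison under the alternatives of filter, normalization and test (25 to 30 where the main counts were 26 to 29), except that an unadjusted p gave 1 gene in place of 0 for anti-IL-6R in scramble, in shMCT-1 and across both backgrounds. With each library left out in turn, 22 to 29 genes were called within IgG, 21 to 27 within anti-IL-6R, 25 to 27 in shMCT-1 + anti-IL-6R against scramble + IgG and 28 to 30 across both treatments. The lowest counts came without shMCT-1 + IgG replicate 2 and without scramble + anti-IL-6R replicate 2. Shares of all tested genes called under the alternatives are not given here. The counts of the 5 further lists were recomputed under the same alternatives, a choice made after the data were seen, and none moved by over 1.5 times. A lone library left in a group was assumed to vary like the other groups.

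The directions that changed were those of values near 0 or of genes on chromosomes 2 and 12. Subtracting the chromosome median gave 0.0024 for Sel1l within IgG, 0.20 for Dnajc10, 0.028 for Traf2 and 0.0008989 for Srp54a across both treatments. Within anti-IL-6R, Atf6b was -0.018 with the filter of 7 libraries, -9.7e-05 with RLE size factors, -0.000176 with DESeq2 and -0.074 to 0.11 with libraries left out, and Ssr1 was -0.0017 with the filter of 7 libraries and -0.031 to 0.098 with libraries left out. The cause was not tested. Without a filter the median of all genes across both treatments moved to -0.13.

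Same-numbered libraries showed little shared deviation (correlations of -0.08 to 0.11). These correlations cannot show whether same-numbered libraries were cultured or prepared together. With the replicate number as a block, 28, 26, 27 and 29 ER genes were called within IgG, within anti-IL-6R, in shMCT-1 + anti-IL-6R against scramble + IgG and across both treatments, and 0 in the other comparisons, as without it. With 2 libraries per group, small differences stay below what the fit can call.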
